A study of Mus musculus with 24 samples.

Results

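Eph receptors are a family of receptor tyrosine kinases, and ephrins are the membrane-bound ligands that they meet on neighbouring cells. The transcripts of 9 listed genes of this family were described in P19 mouse embryonal carcinoma cells: the receptors Epha1, Epha2, Epha4, Ephb2, Ephb3 and Ephb4 and the ligands Efna1, Efnb1 and Efnb2. The members were all probe sets of the Affymetrix MOE430A and MOE430B chips whose annotation gives 1 of these symbols and no other. This gave 20 of 45265 probe sets, 17 on MOE430A and 3 on MOE430B, for 8 of the 9 genes and of 18194 genes named on the chips in this way, with no probe set under the symbol Ephb2 in the annotation used. The members were chosen by earlier results of the same arrays, in which Epha1 had passed the test between cultures at D1. The D1 difference between cultures, and every quantity that contains it, is therefore given below as a description and without a p-value.

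P19 is a clonal line that behaves as a pluripotent cell, and the study asked how aggregation in suspension changes its transcripts. The 12 RNA samples form 4 groups of 3: suspension culture at the stage labelled D2, monolayer culture at D2, suspension culture at D1 and monolayer culture at D1. All 4 groups were grown in alpha medium with fetal bovine and calf serum, the labels name no inducer, and they do not spell out D. Each RNA was read on both chips, which gives 24 arrays. The labels do not say whether replicates were separate cultures, so p-values measure only the spread between these samples, which may be technical.

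Eph receptors and ephrins signal when cells touch. The receptor signals forward into its own cell and the ephrin can signal back into the cell that carries it, and the outcome is often repulsion, a boundary between cell groups or a change in adhesion. A-type ephrins are held in the membrane by a lipid anchor and bind mostly EphA receptors, while B-type ephrins cross the membrane and bind mostly EphB receptors, with Epha4 binding both types. In the early mouse embryo Epha2 is known from the primitive streak and node.

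The promoter windows of Epha1 and Epha2 are shown because these members had the widest range of group means. They are RefSeq sequences of build GRCm38.p6, from 250 bases before to 50 bases after a transcript start, read 5′ to 3′ on the gene's strand. Capitals mark the GC box, GGGCGG or its reverse complement. The Epha1 window is chr6:42373219-42373518 on the minus strand and the Epha2 window is chr4:141300971-141301270 on the plus strand.
Epha1: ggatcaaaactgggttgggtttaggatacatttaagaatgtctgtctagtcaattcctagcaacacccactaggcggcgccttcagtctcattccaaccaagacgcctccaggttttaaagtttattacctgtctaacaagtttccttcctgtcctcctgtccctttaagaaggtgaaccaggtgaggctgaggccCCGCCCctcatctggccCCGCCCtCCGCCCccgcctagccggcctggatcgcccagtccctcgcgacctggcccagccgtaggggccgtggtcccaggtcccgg
Epha2: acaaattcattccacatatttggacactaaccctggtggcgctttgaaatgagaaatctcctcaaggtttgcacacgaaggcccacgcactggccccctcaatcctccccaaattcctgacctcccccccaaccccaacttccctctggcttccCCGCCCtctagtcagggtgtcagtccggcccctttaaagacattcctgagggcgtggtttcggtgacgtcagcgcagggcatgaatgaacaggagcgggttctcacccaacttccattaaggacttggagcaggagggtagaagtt
The Epha1 window held 3 GC boxes and the Epha2 window held 1, and no match in either window overlapped another. A GC box on either strand stood in the windows of 7 of the 9 member genes and in 35.7% of all 32851 promoter windows of this length. The TEAD core GGAATG occurred once in the Epha1 window, in 2 copies in the Epha2 window, in windows of 3 of the 9 genes and in 14.7% of all windows. The TCF core CTTTGA was in the Epha2 window alone among the members and in 16.0% of all windows. CCAAT was in neither window, in those of 5 of the 9 genes and in 37.4% of all windows, and TATAAA was in neither, in that of Efnb2 alone and in 13.6% of all windows. These matches describe letters and not binding.

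Signals are linear MAS5 intensities scaled by the authors, and each array's 2% trimmed mean lay between 1500.2 and 1500.6. A level can be compared between samples of 1 probe set but not between probe sets. The pluripotency genes were well detected in all 12 samples, with signals of 25306 to 42476 for Pou5f1, 3709 to 9095 for Nanog and 4838 to 7395 for Sox2. The replicate 3 arrays had a later hybridization time of day and form what is called the late wash run here. They had lower median correlations with the other arrays (0.832 to 0.855 on MOE430B) than replicates 1 and 2 had (0.862 to 0.881). The 18S control signal on MOE430A averaged 41708 ± 4857 in suspension and 33199 ± 12649 in monolayer at D2, and 41993 ± 10129 in suspension and 18698 ± 11726 in monolayer at D1 (SD, n = 3 each). The D2 difference had a two-sided exact permutation p of 0.3, where 0.1 is the smallest that 3 against 3 allows, and the D1 difference had a p of 0.1. The part of this control in the member differences was not tested.

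Of the 20 member probe sets, 12 passed the filter on low signals, which asks for at least 3 of 12 arrays above the chip's median. They belong to 6 genes: 3 of 3 probe sets of Epha1, 1 of 1 of Epha2, 4 of 5 of Epha4, 1 of 1 of Ephb4, 1 of 3 of Efnb1 and 2 of 4 of Efnb2. The single Ephb3 probe set and both Efna1 probe sets did not pass. A gene with several tested probe sets is represented by the one with the highest mean signal.

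Epha1, an EphA receptor, had the widest range of group means of the members, 1.75 on the log2 scale. At D2 its representing probe set 1422917_at read 3694, 2547 and 3171 in suspension, against 1471, 1546 and 862.4 in monolayer. All 3 suspension samples lay above all 3 monolayer samples, and the lowest suspension signal was well above the highest monolayer signal. The means were 3138 ± 574 in suspension and 1293 ± 375 in monolayer (SD, n = 3 each), a log2 difference of 1.27 ± 0.27 (SE). This did not pass the test in limma after Benjamini-Hochberg adjustment over all 26516 tested probe sets (adjusted p = 0.159). It passed in 1 of 24 alternative fits, that with array weights, which count noisy arrays for less (adjusted p = 0.0451). That fit called 41 of all tested probe sets, against 14 in the main fit. Over the 24 fits the adjusted p reached 0.827. The exact permutation test gave 0.1, the smallest p that it can give here.

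At D1 the same Epha1 probe set read 2921, 3313 and 2861 in suspension, against 997.0, 569.2 and 1221 in monolayer. The groups again did not overlap, and the log2 difference was 1.71 ± 0.27, which is the value that chose this gene. The call behind that choice was lost in 15 of 24 alternative fits, including those without the late wash run and 11 of the 12 that left out 1 RNA sample; it held without replicate 3 of monolayer D2. The difference itself stayed above 0 in all 24, between 1.41 and 1.97. The D2 against D1 differences of this probe set were 0.04 ± 0.27 in suspension and 0.47 ± 0.27 in monolayer, with adjusted p-values of 0.994 and 0.709. In order of group means the suspension groups at D2 and D1 came first and did not differ beyond their spread, and the monolayer groups at D2 and D1 followed with overlapping samples.

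**Figure D1:**
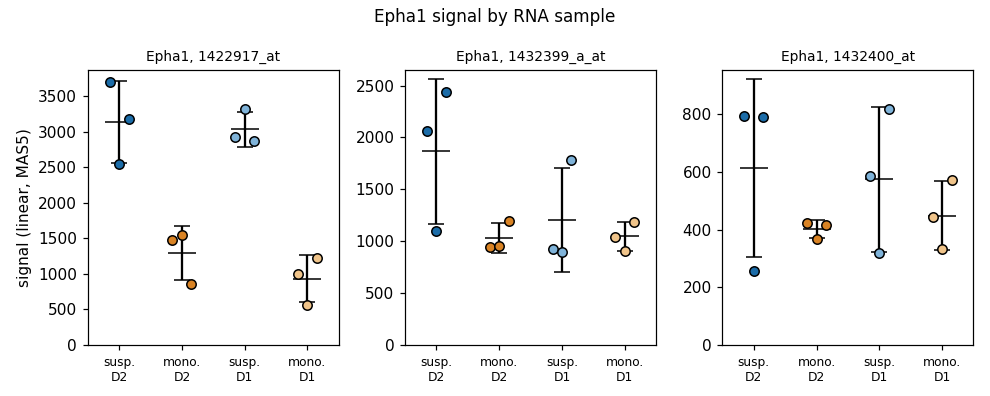
Linear signal of the 3 Epha1 probe sets in each RNA sample (points), with group mean and SD (bars), for suspension and monolayer at D2 and at D1. With 1422917_at the suspension samples sit between 2547 and 3694, above all monolayer samples, which sit between 569.2 and 1546; the groups of 1432399_a_at and 1432400_at overlap at both stages.

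The other Epha1 probe sets showed less. Probe set 1432399_a_at read 2060, 1094 and 2441 in suspension at D2, against 943.0, 954.1 and 1199 in monolayer at D2, where suspension replicate 2 lay within the monolayer range. Its log2 difference at D2 was 0.76 ± 0.30 (adjusted p = 0.629), and that at D1 was 0.13 ± 0.30. Probe set 1432400_at differed by 0.41 ± 0.43 at D2 (adjusted p = 0.919) and by 0.26 ± 0.43 at D1. Both were designed from the same cDNA, which is another sequence than that behind 1422917_at. Over the 12 samples they correlated with each other at r = 0.79 but with 1422917_at at 0.48 and 0.42, so the probe sets of Epha1 disagree on the size of its difference.

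Marker genes of other cell states were read beside the Epha1 signal. The summed signal of the mesoderm and streak markers, 3 of 5 represented, ran from 5733 to 8366 in suspension and from 3007 to 4886 in monolayer at D2, and from 6714 to 11372 in suspension and from 3665 to 7259 in monolayer at D1. That of the endoderm markers, also 3 of 5 represented, ran from 2650 to 3507 in suspension and from 1425 to 1979 in monolayer at D2. At D1 it ran from 2820 to 3726 in suspension and from 1696 to 2211 in monolayer. The groups of these sums did not overlap except for the mesoderm and streak markers at D1. The members of these lists did not move alike, and Eomes and Foxa2 had the highest mean signals in them. Of the streak genes Eomes differed between cultures by 0.82 on the log2 scale at D2 and 1.08 at D1, Mixl1 by 0.58 and 0.06, and Mesp1 by 0.31 and -0.45, all with overlapping samples. Of the endoderm genes Foxa2 differed by 1.34 at D2 and 1.47 at D1 without overlap. Gata6 differed by 0.66 at D2 without overlap and by 0.18 at D1 with overlap, and Gata4 by 0.28 at D2 with overlap and by -0.58 at D1 without. The summed neural markers, 2 of 5 represented, were also apart at D2, with 1276 to 1402 in suspension and 1544 to 1895 in monolayer, and overlapped at D1. Singly, Tubb3 and Neurod1 differed by -0.63 and 0.08 at D2, each with overlap. The summed epithelial markers, 4 of 4 represented, were apart at D1, with 24193 to 27323 in suspension and 19087 to 21517 in monolayer, and overlapped at D2. Epcam had the highest mean signal of them and differed by 0.51 at D1 without overlap. Krt8, Krt18 and Cdh1 differed by 0.07, -0.13 and -0.16 at D1, each with overlap. At D2 Epcam was higher in suspension (0.32) and Krt18 lower (-0.83), both without overlap. Krt8 and Cdh1 differed by 0.05 and -0.53 at D2 with overlap. The sums of the fibroblast markers, 2 of 6 represented, and of the endothelial markers, 1 of 4, overlapped at both stages. No gene of these lists passed the test at D2, where limma called 14 of 26516 probe sets and 1772 had an unadjusted p under 0.05. The summed pluripotency markers, 6 of 6 represented, overlapped at D2, with 93397 to 100522 in suspension and 89901 to 102282 in monolayer. Singly, Nanog and Dnmt3b were higher in suspension at D2 without overlap (0.54 and 0.25). Utf1 and Sox2 were lower without overlap (-0.29 each). Tdgf1 and Pou5f1 overlapped (0.32 and -0.10). At D1 Utf1 was lower in suspension without overlap (-0.73), and the other pluripotency genes overlapped. The part of these markers in the Epha1 difference was not tested. In bulk samples a change in the share of cells with a transcript and a change in RNA per cell cannot be told apart.

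The genes most like Epha1, by Pearson's r of log2 signal over the 12 samples among 12726 other represented genes, were Fst at 0.98, Dusp1 at 0.94, and Phc2, Lef1 and Tgfbr3 at 0.93 each. Fst encodes follistatin, a secreted activin antagonist, Dusp1 a MAP kinase phosphatase, Lef1 a nuclear partner of beta-catenin and Tgfbr3 a TGF-beta co-receptor. With group means removed the r values were 0.88 for Fst, 0.73 for Dusp1, 0.81 for Phc2, 0.67 for Lef1 and 0.62 for Tgfbr3. These samples share culture, stage and wash run, so the values are a description of likeness only.

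Epha2, the EphA receptor with the second widest range of group means (1.03 on the log2 scale), was highest in suspension at D1. Its 1 probe set read 1792, 1150 and 1849 in suspension at D2 and 2779, 2289 and 3017 in suspension at D1. The D2 and D1 suspension samples did not overlap, and the means were 1597 ± 388 at D2 and 2695 ± 371 at D1 (SD, n = 3 each). The log2 difference of D2 against D1 in suspension was -0.76 ± 0.24 and did not pass (adjusted p = 0.841, exact permutation p = 0.1). The beta-actin 3' to 5' signal ratio, a measure of RNA integrity, was read on both chips for the same groups. On MOE430A, which holds the Epha2 probe set, it was 1.16 ± 0.09 in suspension at D2 and 1.25 ± 0.06 at D1. These overlapped (exact permutation p = 0.3). On MOE430B it was 1.07 ± 0.04 in suspension at D2 and 1.29 ± 0.04 at D1 without overlap (exact permutation p = 0.1). The part of this ratio in the Epha2 difference was not tested. In monolayer the signals were 1389, 1636 and 997.2 at D2 and 1665, 1064 and 1204 at D1. These overlapped, with a difference of 0.03 ± 0.24 (adjusted p = 0.991).

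Between cultures, Epha2 at D2 overlapped, with a log2 difference of 0.24 ± 0.24 (adjusted p = 0.912). At D1 the suspension samples all lay above the monolayer samples, with a difference of 1.03 ± 0.24. The beta-actin ratio on MOE430B was also apart at D1, at 1.29 ± 0.04 in suspension and 1.04 ± 0.08 in monolayer (SD, n = 3 each, exact permutation p = 0.1), and overlapped at D2. On MOE430A, the chip of the Epha2 probe set, it overlapped at D1. It was 1.25 ± 0.06 in suspension and 1.09 ± 0.11 in monolayer there (exact permutation p = 0.2). The interaction of culture and stage, the D2 difference minus the D1 difference, was -0.79 ± 0.34. Epha2 and Epha1 correlated at r = 0.71 over the 12 samples, and at 0.63 with group means removed. The most similar genes to Epha2 were Aggf1 and Hmgn3 at r = 0.87 and 0.86, then Ankrd31, Hus1 and Pkdcc at 0.82, 0.82 and 0.81. These are below the values found for Epha1. Fst, Phc2 and the others of the Epha1 list were not among these 5.

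Epha4, the receptor that binds both ligand types and is known for axon guidance and hindbrain boundaries, was represented by 1429021_at on MOE430B. It read 1491, 1866 and 1559 in suspension at D2, against 1243, 1415 and 682.5 in monolayer at D2. The groups did not overlap, with a log2 difference of 0.56 ± 0.32 (adjusted p = 0.800), and the lowest sample, monolayer replicate 3, stood far under the other monolayer samples. In monolayer the D1 signals were 1766, 1646 and 1790, all above those at D2, and the difference of D2 against D1 was -0.65 ± 0.32 (adjusted p = 0.640). In suspension D2 and D1 differed by 0.01 ± 0.32.

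The other tested Epha4 probe sets showed this pattern only in part. Probe set 1439757_s_at read 969.2, 1458 and 581.7 in suspension at D2, against 487.9, 362.3 and 448.8 in monolayer at D2, without overlap (log2 difference 0.97 ± 0.50, adjusted p = 0.785). It passed the filter with 3 arrays above the chip's median, all of them from suspension. Probe set 1421928_at differed by -0.04 ± 0.26 and 1421929_at by 0.59 ± 0.41 at D2, and both overlapped. Correlations between Epha4 probe sets over the 12 samples were at most 0.50. The untested 1456863_at stayed between 14.2 and 87.6.

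Ephb4, the receptor of Efnb2 known for venous identity, was the flattest member. Its signals were 1456, 1276 and 875.9 in suspension and 976.9, 1409 and 1015 in monolayer at D2. At D1 they were 1050, 955.2 and 960.7 in suspension and 1022, 1225 and 875.3 in monolayer. All 4 groups overlapped, and the log2 difference between cultures at D2 was 0.07 ± 0.22 (adjusted p = 0.983). Ephb3, an EphB receptor known from the intestinal crypt, was low, with 422.9, 135.5 and 539.9 in suspension at D2 against 59.7, 111.7 and 79.1 in monolayer at D2. The D2 groups did not overlap, while at D1 they did, with a mean of 301 ± 273 in suspension and 140 ± 86 in monolayer. Only 1 array exceeded the chip's median, so Ephb3 was not tested.

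**Figure D2:**
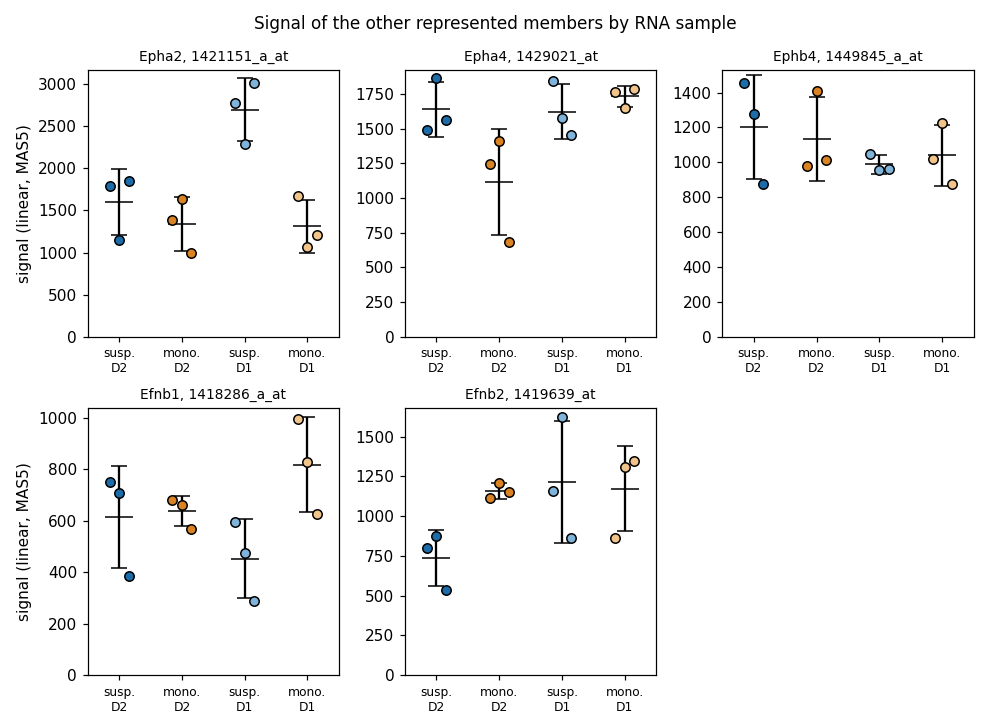
Linear signal of the representing probe sets of Epha2, Epha4, Ephb4, Efnb1 and Efnb2 in each RNA sample (points), with group mean and SD (bars), for suspension and monolayer at D2 and at D1. Epha2 stands highest in suspension at D1 (2289 to 3017) and Efnb2 lowest in suspension at D2 (538.2 to 875.8), while the Ephb4 groups overlap.

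Among the ligands, Efnb2, a transmembrane ephrin known as an arterial marker, was lower in suspension at D2 without passing the test. Its probe set 1419639_at read 800.2, 875.8 and 538.2 in suspension at D2, against 1112, 1212 and 1151 in monolayer at D2. The groups did not overlap, and the log2 difference was -0.64 ± 0.26 (adjusted p = 0.646). At D1 they overlapped, with 1161, 1627 and 864.1 in suspension and 864.5, 1311 and 1346 in monolayer. D2 against D1 was -0.67 ± 0.26 in suspension (adjusted p = 0.841) and 0.01 ± 0.26 in monolayer (adjusted p = 0.999). A second tested Efnb2 probe set, 1419638_at, had a D2 difference of -0.48 ± 0.60 and spread widely within groups, from 415.6 to 2431 over the 12 samples. The other pair of Efnb2 probe sets was not tested. Of these, 1449549_at overlapped at both stages, with means of 341 ± 146 in suspension and 500 ± 49 in monolayer at D2, and of 432 ± 202 in suspension and 444 ± 191 in monolayer at D1 (SD, n = 3 each). The other, 1449548_at, overlapped at D2, with 86.0, 324.4 and 151.8 in suspension and 187.1, 609.9 and 167.3 in monolayer. At D1 it did not overlap and read 102.9, 81.0 and 178.0 in suspension at D1 and 300.9, 646.9 and 344.3 in monolayer at D1.

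Efnb1, the X-linked transmembrane ephrin, gave probe sets that disagreed in direction. The tested 1418286_a_at read 595.8, 474.8 and 288.4 in suspension at D1, against 997.5, 829.6 and 627.2 in monolayer at D1. It was lower in every suspension sample than in any monolayer sample there, by a log2 difference of -0.81 ± 0.32. At D2 it overlapped, with 750.8, 706.3 and 385.9 in suspension and 681.8, 663.4 and 569.5 in monolayer (-0.10 ± 0.32, adjusted p = 0.984). The untested 1418285_at ran the other way, with 409.4, 388.0 and 429.2 in suspension at D1 against 151.6, 297.6 and 145.4 in monolayer at D1. At D2 it read 443.4, 314.3 and 532.2 in suspension against 149.3, 187.5 and 300.9 in monolayer, again without overlap. The third Efnb1 probe set, 1451591_a_at, was between 69.0 and 889.1 and overlapped at both stages. The Efna1 ligand, which binds Epha1 and Epha2, was near the low end of the chip, with 27.2 to 291.6 for 1416895_at and 18.8 to 196.3 for 1448510_at.

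**Figure D3:**
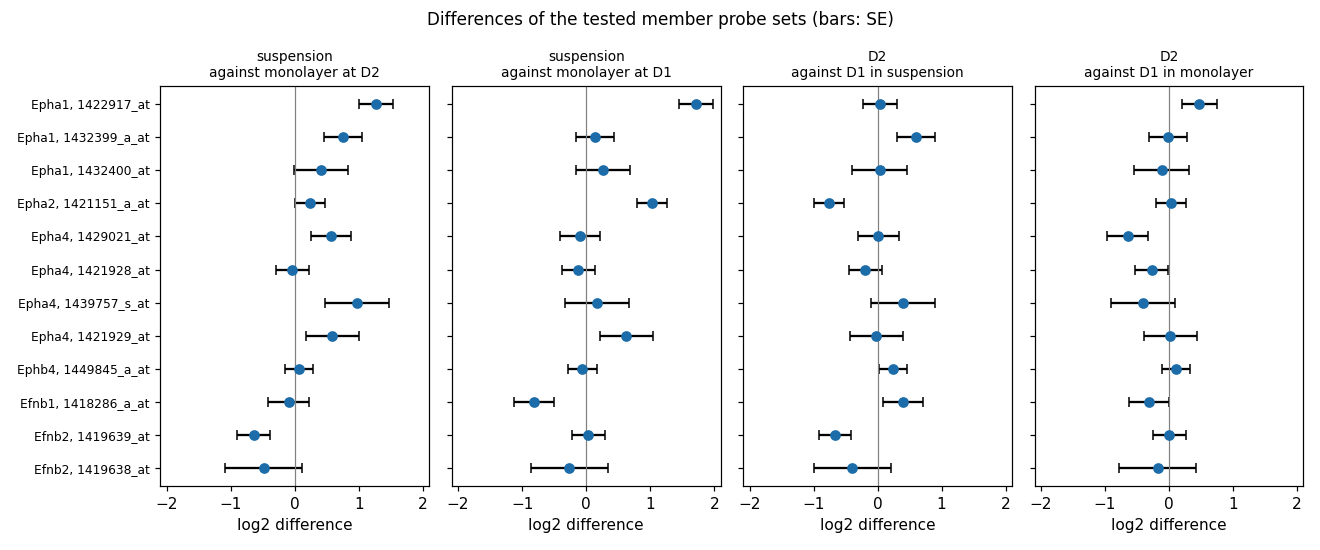
Log2 difference (points) with SE (bars) of the 12 tested member probe sets in each of 4 comparisons, as suspension minus monolayer or D2 minus D1. The largest positive values are those of Epha1 1422917_at between cultures, 1.27 at D2 and 1.71 at D1, and most other bars lie near 0.

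Over the 12 tested member probe sets, 0 passed the test between cultures at D2, where limma called 0.0528% of all tested probe sets. At D2 the groups did not overlap for 4 of the 12, with Epha1 1422917_at and the Epha4 probe sets 1429021_at and 1439757_s_at higher in suspension and Efnb2 1419639_at lower, and 13.1% of all tested probe sets did not overlap. Of these, Epha4 1439757_s_at had passed the filter only through 3 suspension arrays, so its place in this count leans on the group where it is high. The median log2 difference of the 12 was 0.33, and 8 were above 0. Epha1 1432400_at, also above 0, had likewise passed the filter only through 3 suspension arrays. The filter can therefore tilt this count and median toward suspension. The 12 include 3 probe sets of Epha1 and 4 of Epha4. By gene, 4 of the 6 represented members were above 0, with a median of 0.16. Of all represented genes 49.5% were above 0, with a median of -0.0033. At D1, in the comparison that chose Epha1, 1 of the 12 passed beside 0.0528% of all, and 3 of the 12 did not overlap beside 9.53% of all. These were Epha1 1422917_at and Epha2 higher and Efnb1 1418286_a_at lower.

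For stage, 0 of the 12 passed in any of 3 comparisons. In monolayer limma called 0.00754% of all tested probe sets, 2 of them, while 2116 had an unadjusted p under 0.05. The D2 and D1 monolayer groups did not overlap for 1 of the 12, Epha4 1429021_at, and for 12.4% of all. In suspension limma called 0% (0 probe sets, with 1555 at an unadjusted p under 0.05), and 1 of the 12, Epha2, did not overlap, against 11.8% of all. Averaged over both cultures limma called 0% (0 probe sets, with 2753 at an unadjusted p under 0.05), and the member with the lowest adjusted p was Epha2, at -0.36 ± 0.17 (adjusted p = 0.475). These comparisons share groups with each other and with those between cultures.

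The difference of the representing Epha1 probe set, 1422917_at, had the same sign within each wash batch. A batch is the early run at washing station 1, the early run at station 2 or the late run. Each holds 1 sample per group. At D2 this difference was 1.23 and 0.77 in the early run at stations 1 and 2 and 1.82 in the late run. At D1 it was 2.44, 1.50 and 1.19. Without the late run the D2 value of 1422917_at was 1.00 with an adjusted p of 0.827. The other Epha1 probe sets did not keep 1 sign, with batches in the same order. Probe set 1432399_a_at was above 0 at D2 (1.07, 0.20 and 0.996) but mixed at D1 (-0.02, -0.17 and 0.57). Probe set 1432400_at was mixed at D2 (1.01, -0.63 and 0.85) and at D1 (-0.05, 0.36 and 0.48). The within-batch values of Epha2 at D2 had mixed signs, at 0.13, -0.26 and 0.86, but were 1.07, 0.72 and 1.29 at D1. Those of Efnb2 at D2 were all below 0, at -0.57, -0.33 and -1.03. Those of Epha4 1429021_at at D2 were 0.07, 0.55 and 1.08, and those of Efnb1 1418286_a_at at D1 were -0.74, -0.70 and -0.999.

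**Figure D4:**
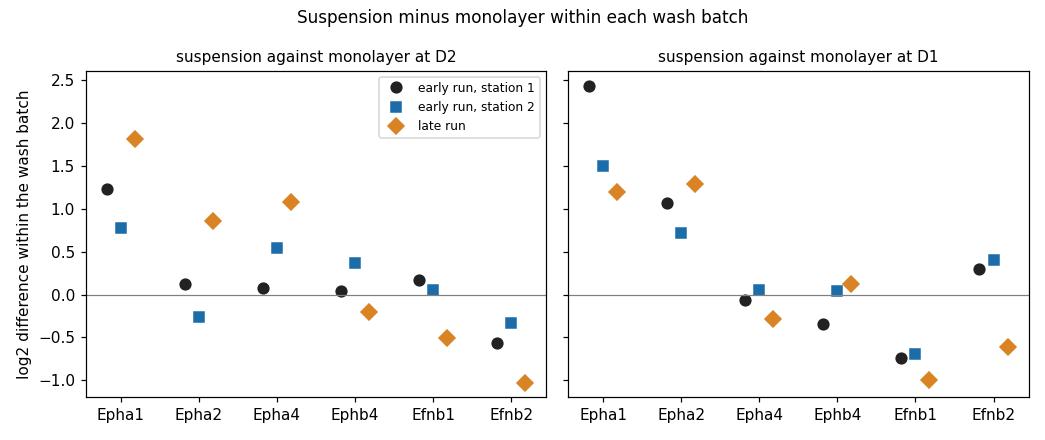
Log2 difference of suspension minus monolayer between the single samples of each wash batch (markers: the early run at stations 1 and 2, and the late run), for the 6 represented members at D2 (left) and at D1 (right). Epha1, by its representing probe set 1422917_at, lies above 0 in every batch. It runs from 0.77 to 1.82 at D2 and from 1.19 to 2.44 at D1, while Ephb4 lies on both sides of 0.

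The other 13 family genes had 25 probe sets, of which 10, from 8 genes, were tested. Of the 8 represented genes 0 passed in any of the 4 tested comparisons, where limma called 0.0864% of all 12727 represented genes between cultures at D2, 0.0157% in monolayer, 0% in suspension and 0% averaged over both cultures. The unadjusted p was under 0.05 for 906, 1133, 749 and 1511 of the 12727 genes in the same 4 comparisons. At D2 their median log2 difference between cultures was 0.37, against -0.0033 for all represented genes. Efna5, a lipid-anchored ephrin, read 3494, 4075 and 2004 in suspension at D2 against 4505, 7824 and 5416 in monolayer at D2, without overlap (-0.89, adjusted p = 0.620). Efna4 had 970.7, 778.8 and 733.7 in suspension against 1255, 1012 and 1046 in monolayer at D2, also without overlap (-0.40, adjusted p = 0.782). The lipid-anchored Efna2 was on the other side, with 3744, 3911 and 4134 in suspension against 3179, 3263 and 2021 in monolayer at D2 (0.49, adjusted p = 0.853). Its second tested probe set, 1417521_at, overlapped at D2.

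Efna3, a further A-type ephrin, with its representing probe set 1455344_at read 999.5, 1234 and 1562 in suspension at D2 against 194.2, 365.1 and 255.5 in suspension at D1, without overlap. That log2 difference was 1.86 and did not pass (adjusted p = 0.841), and in monolayer, where Efna3 ran from 214.6 to 1427 at D2, it was -0.03. The second tested Efna3 probe set, 1431170_at, read 469.2, 897.8 and 851.3 in suspension at D2 against 629.7, 517.8 and 486.0 in suspension at D1. It overlapped, with a smaller log2 difference of 0.37 ± 0.30 (adjusted p = 0.889). At D2 the cultures differed by 0.84 for Efna3, 0.39 for Efnb3, 0.62 for Epha5, 0.36 for Epha7 and 0.29 for Ephb1, with overlapping samples for each and adjusted p-values of 0.840 to 0.924. Epha3, Epha6, Epha8, Epha10 and Ephb6 had no tested probe set.

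Of 50 genes whose proteins act with Eph receptors or ephrins (adaptors, exchange factors, kinases and phosphatases among them), 38 were represented, and 0 passed in any of the 4 tested comparisons. At D2 20 of the 38 (52.6%) were higher in suspension, beside 49.5% of all represented genes. The median log2 difference of the 38 was 0.01. The lowest adjusted p-values between cultures at D2 belonged to Inppl1, the SHIP2 phosphatase that binds Epha2 (-0.65, adjusted p = 0.760), the adaptor Grb2 (0.35, 0.781), Rgs3, a G protein regulator that binds B-type ephrins (0.40, 0.785), and the adaptor Crkl (0.36, 0.800). For D2 against D1 in monolayer Rgs3 and Grb2 came first (-0.60 and -0.40, adjusted p = 0.470 and 0.616), followed by Dvl2, a Dishevelled protein, and the Src family kinase Fyn (0.74 and 0.68, adjusted p = 0.644 and 0.658). In suspension Sh2d3c, an adaptor that binds Eph receptors, the GTPase Cdc42 and the exchange factor Arhgef15 differed by 0.57, 0.31 and -0.88, all with an adjusted p of 0.841, and the ubiquitin ligase Cbl by 0.36 (adjusted p = 0.852). Averaged over both cultures, Sh2d3c, Dvl2, Fyn and the Rac exchange factor Tiam1 differed by 0.35, 0.55, 0.51 and 0.24, with adjusted p-values of 0.444, 0.490, 0.506 and 0.544.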

How the data were processed

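The authors deposited a linear signal intensity for each probe set of each array and had scaled every array to the same trimmed mean. MAS5 is named, without a version, in the submitters' processing notes. The file headers give a station and a hybridization time for each array. Early and late runs were told apart by that time of day, and wash run and wash batch are names given to them here. The early run used stations 1 and 2, and the late run holds every replicate 3. Arrays carry no read depth, so precision depends on how many there are.

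The log2 scale was used after an offset was added, the 10th percentile of the chip's signals, 51.0 on MOE430A and 108.1 on MOE430B, so differences of low signals are understated. Probe sets with at least 3 of 12 arrays above the chip's median (599.8 and 846.4) were tested, 12689 on MOE430A and 13827 on MOE430B, without control probe sets. limma 3.58.1 in R 4.3.3 fitted 1 mean per group over all 12 samples with a moderated variance that followed signal, and p-values were adjusted by Benjamini-Hochberg over both chips, with a threshold of 0.05. The fit was tested on simulated data. Symbols came from the platform annotation: 35067 probe sets had 1 symbol, 936 several and 9262 none.

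The members and the gene lists were chosen with earlier results of these data known. Every member probe set was accounted for, other family genes were named where tested, pathway genes were named by lowest adjusted p (up to 4 per tested comparison), and likeness was searched for Epha1 and the other member with the widest range of group means. The numbers of replicates were taken from the labels. Deviations of same-numbered samples of the 2 cultures at D1 correlated at 0.11, 0.21 and 0.17 across probe sets, and these samples also shared a wash run. The differences and SE given above come from a fit without pairs, at D1 as at D2. A fit with the replicate number as a block was run as an alternative. Alternatives covered normalization, offset, filter, replicate and wash blocks, array weights, adjustment and leaving out samples.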

Additional observations from a re-analysis of the deposited data

How the results depend on the processing

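The member difference that passed between cultures at D1, that of Epha1, is the value that chose the members. It stayed above 0 under each alternative that was run, which is a description and adds no support. Between cultures at D1 the count of member probe sets that passed was 1, beside 14 over all probe sets. The member count became 0 with quantile normalization, with no filter on low signals, without the late wash run and with only the 2 groups compared. Over all probe sets these fits called 4, 4, 0 and 1, in that order. Leaving out 1 RNA sample at a time gave 0 to 1 member probe sets, and the cause was not tested. Between cultures at D2 the member count was 0 and became 1, Epha1, with array weights. Calls over all probe sets rose from 14 to 41 with that setting. Leaving out 1 sample at a time kept the Epha1 difference at D2 between 1.02 and 1.42, with adjusted p-values from 0.0563 to 0.580. In the 3 comparisons of stage the count was 0 under each alternative that was run; only the 2 groups compared could not be fitted for the average over both cultures. With the replicate block the counts were 1 at D1 and 0 at D2, where Epha1 had an adjusted p of 0.0561, and this paired fit changed no call. Beyond D1 the same numbers did not all correlate above 0.1 between groups, and the main fit treated them as pairs at neither stage. With 3 samples per group and probe sets of a gene that disagree, a difference that did not pass is not shown to be absent.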
